A study of Mus musculus with 10 samples.

Results

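The proteasome genes examined here were the genes of the normalized count table whose symbol begins with Psm, a letter from a to g and a digit, and 51 of the 25233 rows with a gene symbol met that rule. They comprised 7 α-ring genes, 4 structural β-ring genes, the 3 constitutive catalytic genes Psmb5, Psmb6 and Psmb7, and the 3 interferon-inducible catalytic genes Psmb8, Psmb9 and Psmb10. The others were 6 ATPases and 11 non-ATPase subunits of the 19S cap, 5 activator genes, the inhibitor gene Psmf1, 7 assembly chaperones, and the tissue-restricted core genes Psma8 and Psmb11. Psmc3ip and Psme3ip1 also met the rule, but only by their names, since their products are partners of subunits and not subunits.

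RNA was sequenced from 5 preparations of hypertrophied hepatic stellate cells (hypHSC) and 5 of quiescent hepatic stellate cells (qHSC), all sorted from the livers of C57BL/6J mice. The hypHSC donors were fed CDAHFD, a high-fat diet without choline on which mice develop steatohepatitis with fibrosis. Replicates 1 and 2 had 13 weeks of this diet and came from mice aged 19 weeks, and replicates 3, 4 and 5 had 12 weeks and came from mice aged 18 weeks. The qHSC donors received a standard diet, and were aged 36 weeks for replicates 1, 2 and 5 and 34 weeks for replicates 3 and 4. Stellate cells store vitamin A in lipid droplets, and the sort was on droplet fluorescence, green for hypHSC and blue for qHSC, after a stronger enzymatic digestion of the CDAHFD livers. Antibiotics were added to the buffers of the CDAHFD preparations only. Diet, age, digestion, antibiotics and gate, among other possible differences of handling, therefore cannot be told apart in the comparison of the groups. The preparations were selected for RNA quality, those of hypHSC from a set that the paper describes as holding more samples than mice. Nothing used here states that each came from a mouse of its own, so preparations may share a mouse. The p-values therefore measure the spread between preparations.

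The proteasome degrades proteins that carry a ubiquitin chain. Its core particle is a stack of rings, in which the α rings control entry and the β rings hold the protease sites β1 (Psmb6), β2 (Psmb7) and β5 (Psmb5). The 19S cap recognizes, unfolds and feeds the substrate. Under interferon, and constitutively in many immune cells, newly built cores take up β1i (Psmb9), β2i (Psmb10) and β5i (Psmb8) in place of the corresponding constitutive subunits. This immunoproteasome yields peptides suited to MHC class I molecules.

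The promoters of the catalytic genes are shown because the comparison of inducible with constitutive subunits rests on these genes. Psmb7 was not matched. The 250 bases before the RefSeq transcription start are given 5′ to 3′ on the gene's strand, from the RefSeq promoter table, and each was placed on GRCm39 by its single exact match. Capitals mark a match, on either strand, to one of the motifs searched: the antioxidant response element TGACNNNGC, the interferon-stimulated response element (GAAA and GAAA with any 2 bases between them), the gamma-activated site TTCNNNGAA and the CCAAT box. These motifs do not overlap in the sequences shown.
Psmb5: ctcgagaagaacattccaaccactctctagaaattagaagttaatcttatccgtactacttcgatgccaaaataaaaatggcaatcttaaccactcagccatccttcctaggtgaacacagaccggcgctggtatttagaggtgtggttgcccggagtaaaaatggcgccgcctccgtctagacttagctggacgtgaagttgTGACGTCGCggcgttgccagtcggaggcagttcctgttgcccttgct
Psmb6: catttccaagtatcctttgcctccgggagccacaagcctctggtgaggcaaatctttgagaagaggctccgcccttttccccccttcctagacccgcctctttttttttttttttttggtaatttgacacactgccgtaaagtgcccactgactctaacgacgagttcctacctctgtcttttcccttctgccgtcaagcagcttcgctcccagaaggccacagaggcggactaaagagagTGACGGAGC
Psmb8: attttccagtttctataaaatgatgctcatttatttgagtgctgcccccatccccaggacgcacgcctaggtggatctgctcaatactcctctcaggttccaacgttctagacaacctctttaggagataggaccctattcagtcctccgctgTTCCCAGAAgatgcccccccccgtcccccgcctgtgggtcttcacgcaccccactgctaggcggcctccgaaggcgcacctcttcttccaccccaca
Psmb9: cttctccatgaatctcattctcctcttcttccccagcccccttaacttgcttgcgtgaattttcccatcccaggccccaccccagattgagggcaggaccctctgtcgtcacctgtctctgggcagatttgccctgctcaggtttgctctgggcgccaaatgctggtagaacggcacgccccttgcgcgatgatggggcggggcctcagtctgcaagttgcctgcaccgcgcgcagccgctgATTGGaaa
Psmb10: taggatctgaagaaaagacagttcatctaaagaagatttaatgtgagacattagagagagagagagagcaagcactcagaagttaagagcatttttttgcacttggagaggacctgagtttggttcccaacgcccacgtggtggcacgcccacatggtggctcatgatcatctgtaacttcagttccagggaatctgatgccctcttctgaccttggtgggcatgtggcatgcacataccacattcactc
The Psmb5 window lies at chr14:54855453-54855702 on the minus strand and the Psmb6 window at chr11:70415933-70416182 on the plus strand. Those of Psmb8 (chr17:34416919-34417168, plus strand) and Psmb9 (chr17:34406305-34406554, minus strand) point away from each other in the MHC region, where Psmb9 shares its upstream side with Tap1. The Psmb10 window lies at chr8:106665025-106665274 on the minus strand. In GENCODE the canonical transcripts of Psmb8 and Psmb9 start further upstream, at 34416690 and 34406738, so that both windows lie within the span of those transcripts. The canonical transcripts of Psmb5 (start at 54855481) and Psmb10 (106665077) reach partly into their windows. The letters described next, and their absence, therefore hold for the RefSeq starts only.

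In these windows the antioxidant response letters stood 47 to 39 bases before the start of Psmb5 and 9 to 1 bases before that of Psmb6. The letters of a gamma-activated site stood 97 to 89 bases before the start of Psmb8, and an inverted CCAAT box stood 8 to 4 bases before that of Psmb9. None of the 4 motifs was found in the Psmb10 window. Promoters were matched for 43 of the 51 genes, in 47 windows. The antioxidant response letters were in 5 of the 47 (10.6%) and in 10.2% of all 32851 promoters, and the interferon-stimulated letters in 3 of 47 (6.38%) and in 2.98% of all. The gamma-activated letters were in 2 of 47 (4.26%) against 7.02% of all, and the CCAAT box in 16 of 47 (34.0%) against 33.8%. These matches are descriptions of letters, not of binding.

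Between 30534719 and 43283589 reads per hypHSC library and between 35640104 and 47317028 per qHSC library fell on rows with a symbol. The levels below are normalized counts, that is, reads divided by a size factor of the library. Of the 51 genes, 50 were tested, and each of these stood above the minimum of 10 normalized counts in all 10 libraries. Psmb11, the β5t subunit of the thymus, was not tested. It had 1 read in hypHSC 4 and 1 in qHSC 1, and 0 in the other libraries.

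The stellate cell label was checked against 14 stellate markers and 18 macrophage and Kupffer cell markers. All 14 stellate markers were lower in hypHSC, where their summed normalized counts were 32360 to 61644, against 1370870 to 2269900 in qHSC. Of the 18 macrophage markers, 14 were higher in hypHSC and none lower, with sums of 1070160 to 1480950 against 6081 to 144693. Of the markers of resident Kupffer cells, Vsig4 (log2 fold change 2.86) and Cd5l (3.23) were among those higher. Cd163, Timd4, Clec4f and Marco did not pass the test. Their means were 31.3, 17.8, 4930 and 1161 in hypHSC, against 574, 505, 5953 and 661 in qHSC. All 4 neutrophil markers tested were higher in hypHSC (sums of 1861 to 8053 against 12.0 to 392). None of the 2 T and NK cell markers tested passed, and none of the 9 hepatocyte markers did. The other lists were mixed or higher: 4 of 4 cholangiocyte markers, 1 of 4 B and plasma cell markers and 2 of 8 myofibroblast markers were higher, the last with 2 lower. Among sinusoidal endothelial markers 3 of 8 were higher and 2 lower, and among dendritic markers 2 of 6 were higher and 1 lower. The marker counts are of changes of at least 2-fold at a limma adjusted p of at most 0.05. By that rule 17.8% of all genes tested were higher and 21.7% lower. The part of the macrophage markers in the differences below was not tested, and in bulk RNA a change in the number of cells of a type and a change in RNA per cell cannot be told apart. Mitochondrial reads were 12.8% and 7.27% of the total in the 13-week libraries, hypHSC 1 and 2, and 2.21 to 12.8% over all hypHSC, against 1.25 to 1.61% in qHSC.

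With the deposited scaling, 19 of the 31 constitutive genes of the core and the cap were higher in hypHSC than in qHSC and none was lower, a direction that turned with scaling on 3 reference genes (median log2 fold change -0.40, against -1.12 for all genes). Of the 3 inducible catalytic genes none was higher and 1 was lower. With limma, adjusting by Benjamini-Hochberg across all 14630 genes that were tested, 22 of the 50 proteasome genes were higher at an adjusted p of at most 0.05, 2 were lower and 26 did not pass. Of all genes tested, 22.2% were higher and 25.8% lower at that threshold. The stricter class of differentially expressed genes, with a change of at least 2-fold as well, held 8 proteasome genes that were higher (17.8% of all genes) and 1 that was lower (21.7% of all genes). The higher ones were Psmb6, Psmd14, Psmd10, Psmd1, Psma4, Psmb5, Psma7 and Psmd8, and the lower one was Psma8. Psmd8, at a log2 fold change of 1.001, lay just inside that limit and Psme3, at 0.997, just outside. All 5 hypHSC libraries exceeded all 5 qHSC libraries for 18 proteasome genes (17.6% of all genes) and fell below them for 2, Psmb10 and Psmd9 (22.0% of all genes).

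The log2 fold change was above 0 in 31 of these 31 constitutive genes, with a median of 0.54, where the median over all genes tested was -0.20. The absolute direction depended on the scaling: with every library scaled to the same total the median of all genes moved by -0.35 and that of the 31 genes was 0.18, and with scaling on the reference genes Hprt, Pgk1 and Actb the median of all genes moved by -0.94. Relative to the median of all genes the 31 genes stood 0.74 higher as deposited, 0.73 higher with equal totals and 0.72 higher with the 3 reference genes. Scaling moves all genes of a library together, so it could hardly change this distance, and the closeness of these values was fixed in advance. With all 24 settings tried, the distance was between 0.67 (without hypHSC 5) and 0.95 (with only the 12-week hypHSC libraries). For the 3 inducible genes the median was -0.53, and their distance to the median of all genes was between -0.59 and -0.15 over the same settings.

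**Figure D1:**
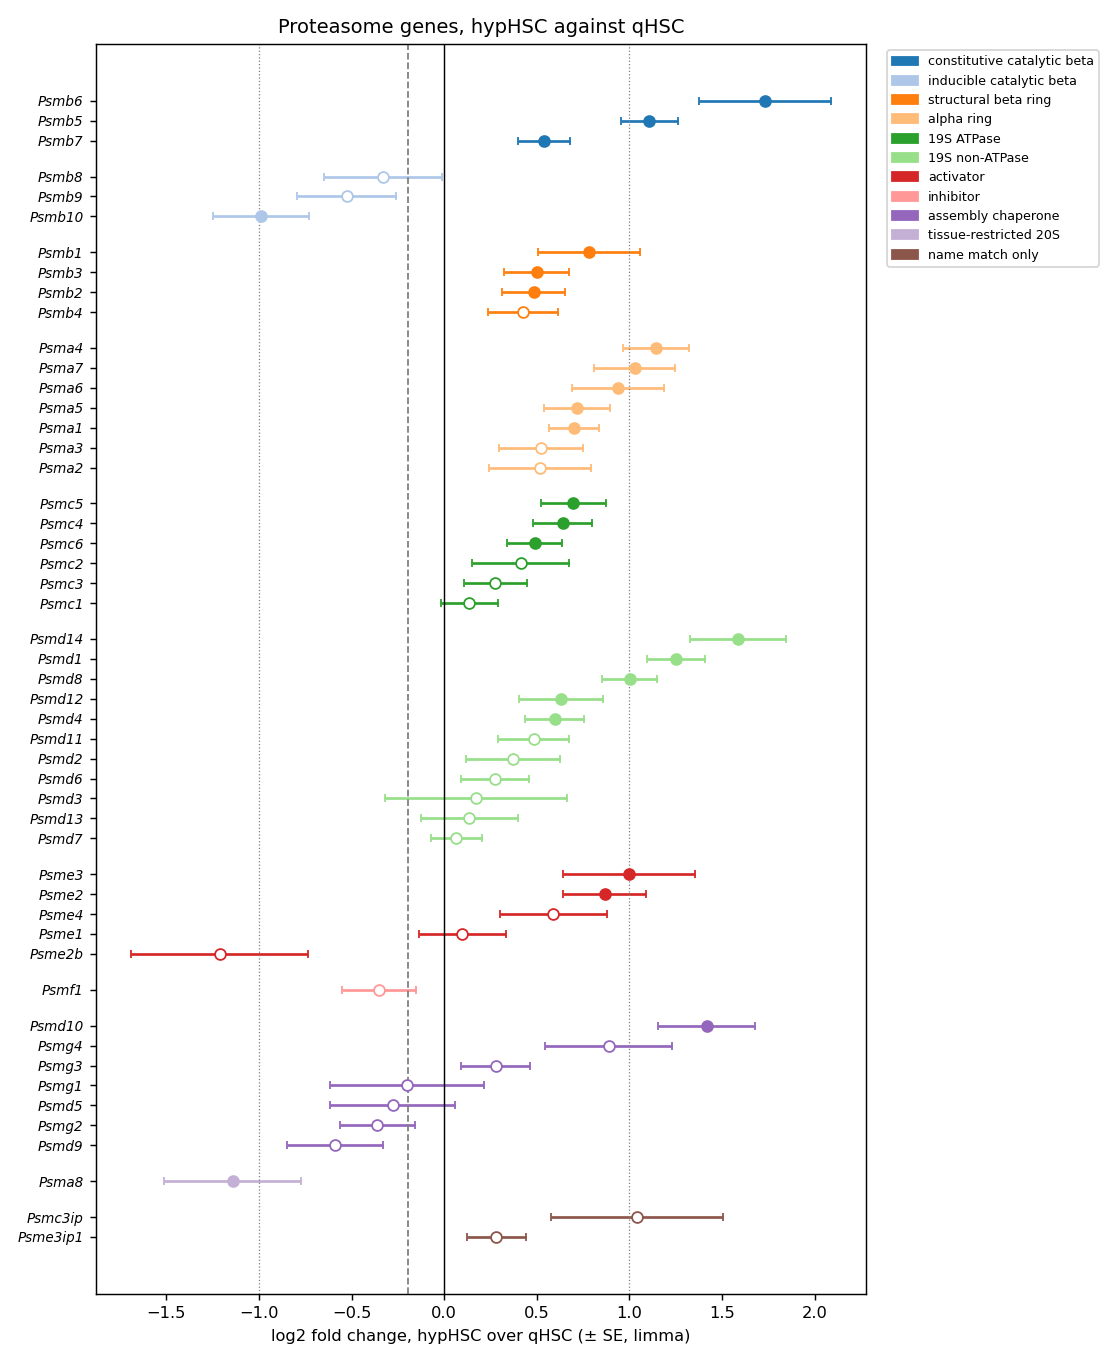
Log2 fold change, hypHSC over qHSC, of the 50 proteasome genes tested, with bars of 1 standard error from limma (5 libraries per group) and colours for the role of the gene. Filled points passed an adjusted p of 0.05, the dashed line is the median of all genes tested (-0.20) and the dotted lines are 2-fold changes. The 31 constitutive core and cap genes lie to the right of 0 and the 3 inducible catalytic genes to the left. With scaling on 3 reference genes the median of the 31 genes turned to -0.40, and that of all genes to -1.12.

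The 3 constitutive catalytic genes were higher in hypHSC at the deposited scaling, with no overlap of the groups. Psmb5, which encodes the chymotrypsin-like β5, had 2395, 2082, 2139, 2064 and 1574 normalized counts in hypHSC 1 to 5 and 1024, 940, 900, 897 and 958 in qHSC 1 to 5. The lowest hypHSC library, hypHSC 5, was still well above the highest qHSC library, and the log2 fold change was 1.11 (SE 0.15, limma adjusted p = 0.000137). Psmb6, which encodes the caspase-like β1, had 58675, 46144, 41217, 111119 and 151381 in hypHSC and 19294, 16932, 23115, 22452 and 27398 in qHSC. Here hypHSC 4 and 5 stood apart from the other hypHSC libraries, and the log2 fold change was 1.73 (SE 0.35, limma adjusted p = 0.00201). Psmb7, which encodes the trypsin-like β2, had 4127, 3253, 3070, 3179 and 3579 in hypHSC and 2596, 2289, 2133, 2564 and 2222 in qHSC. Its log2 fold change was smaller, 0.54 (SE 0.14, limma adjusted p = 0.00832), and the call was lost under equal library totals (0.18). With the 3 reference genes the values of Psmb5 (0.17) and Psmb6 (0.79) were above 0 without passing, and that of Psmb7 was -0.40. In a GENCODE transcript, 47.4% of the 59-base stretches of Psmb5 and 11.3% of those of Psmb7 also occur elsewhere in the genome, and 34.9% of the Psmb7 exon bases overlap exons of Nek6, so their counts carry that uncertainty.

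The 3 inducible catalytic genes went the other way or did not pass. Psmb10 (β2i) had 3828, 3297, 2327, 2974 and 1382 normalized counts in hypHSC 1 to 5 and 4417, 4523, 6317, 5173 and 5686 in qHSC 1 to 5. The groups did not overlap, and the log2 fold change was -0.99 (SE 0.26, limma adjusted p = 0.00851). Psmb9 (β1i) had 6616, 6992, 3859, 4612 and 3234 in hypHSC and 6517, 5063, 11122, 6620 and 6803 in qHSC. Both 13-week libraries, hypHSC 1 and 2, lay within the qHSC range, and its log2 fold change of -0.53 did not pass (SE 0.27, limma adjusted p = 0.124). With only the 12-week hypHSC libraries it passed at -0.85, and 38.1% of its exon bases overlap exons of its neighbour Tap1. Psmb8 (β5i) had 2512, 3700, 2762, 6493 and 5239 in hypHSC and 3262, 3846, 7662, 4398 and 6504 in qHSC. Its groups overlapped in part: hypHSC 1 and 3 lay below all qHSC libraries, and qHSC 3 and 5 above all hypHSC libraries. The log2 fold change was -0.33 (SE 0.32, limma adjusted p = 0.413). In qHSC the highest library was qHSC 3 for each of the 3 genes. In hypHSC the 3 genes did not share an order: hypHSC 4 was highest for Psmb8, hypHSC 2 for Psmb9 and hypHSC 1 for Psmb10.

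**Figure D2:**
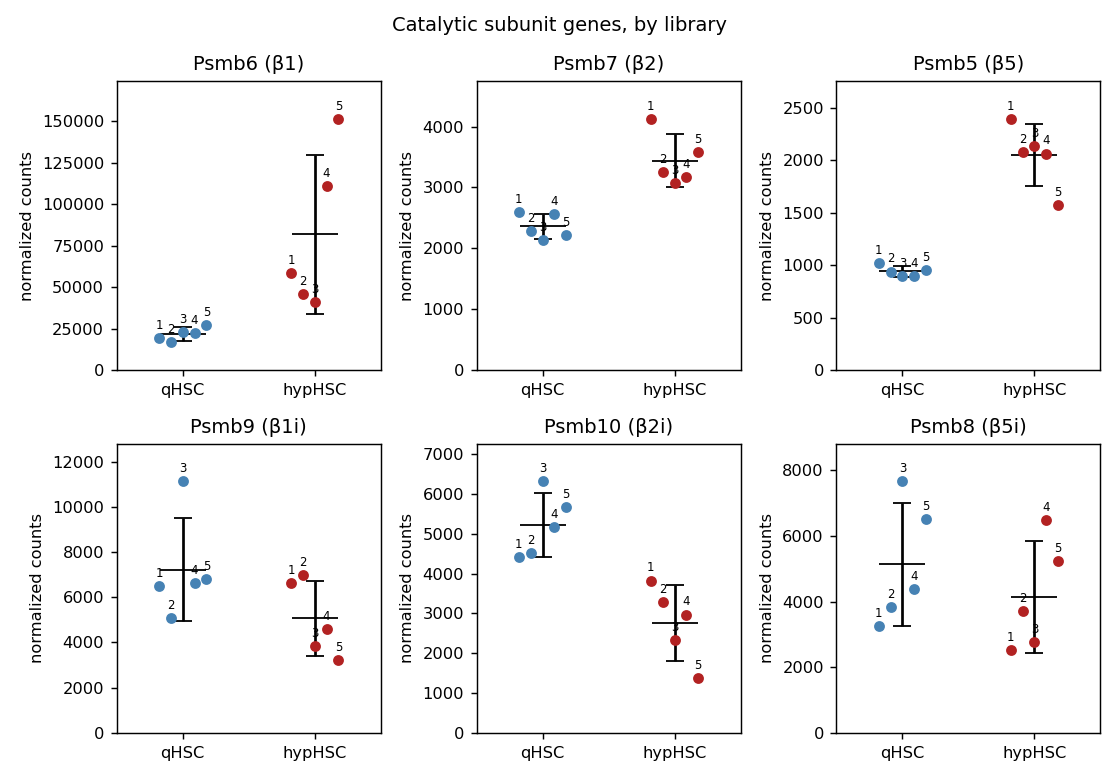
Normalized counts of the constitutive (upper) and inducible (lower) catalytic genes in each library, numbered by replicate, with the mean and SD of each group (n = 5) in black. The upper panels show no overlap between the groups, the Psmb10 panel shows hypHSC below qHSC without overlap, and the Psmb8 and Psmb9 panels overlap.

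The balance between an inducible subunit and the one it replaces was compared as a log2 ratio within each library, which no scaling of the libraries can change. All 3 ratios were lower in hypHSC. For Psmb9 over Psmb6 the log2 ratios were -3.15, -2.72, -3.42, -4.59 and -5.55 in hypHSC 1 to 5 and -1.57, -1.74, -1.06, -1.76 and -2.01 in qHSC 1 to 5. The groups were fully apart, with a difference of -2.26 (SE 0.54), or 4.78-fold lower (exact two-sided permutation p = 0.00794, adjusted over the 3 pairs 0.0119). For Psmb10 over Psmb7 they were -0.11, 0.02, -0.40, -0.10 and -1.37 in hypHSC and 0.77, 0.98, 1.57, 1.01 and 1.35 in qHSC. These groups too were apart, by -1.53 (SE 0.29) or 2.88-fold (exact permutation p = 0.00794, adjusted 0.0119). The value 0.00794 is the smallest that the 252 arrangements of 5 against 5 libraries can give. For Psmb8 over Psmb5 they were 0.07, 0.83, 0.37, 1.65 and 1.73 in hypHSC and 1.67, 2.03, 3.09, 2.29 and 2.76 in qHSC. Only hypHSC 5 reached above the lowest qHSC library, and the difference was -1.44 (SE 0.42), or 2.71-fold (exact permutation p = 0.0159, adjusted 0.0159). With the 12-week hypHSC libraries alone this last difference was -1.12 (exact permutation p = 0.0536). Averaged over the 3 pairs, the log2 ratio was -1.12 ± 0.40 in hypHSC and 0.63 ± 0.35 in qHSC (SD, n = 5), a description with no test.

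**Figure D3:**
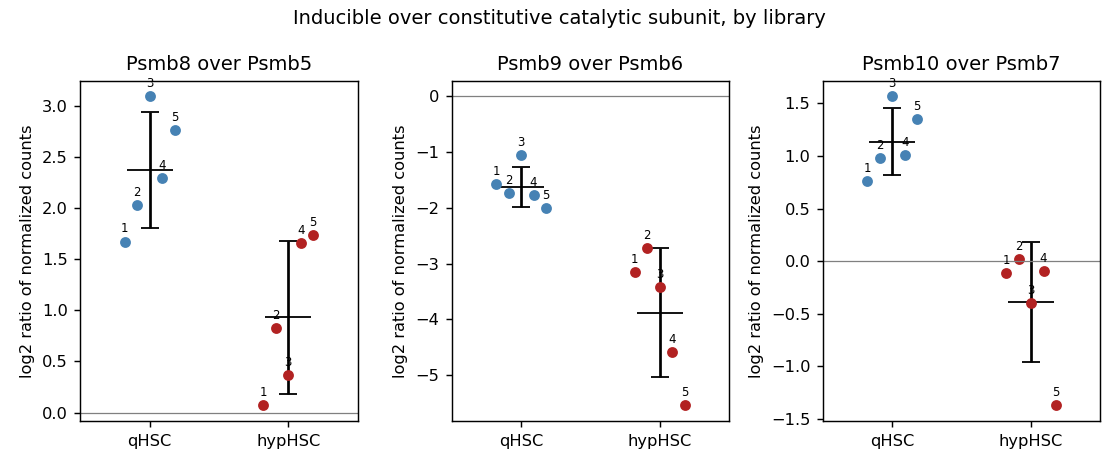
Log2 ratio of normalized counts of each inducible catalytic gene to the constitutive gene it replaces, in each library, numbered by replicate, with the mean and SD of each group (n = 5). The hypHSC libraries lie below all qHSC libraries for Psmb9 over Psmb6 and Psmb10 over Psmb7, and hypHSC 5 alone crosses the lowest qHSC library for Psmb8 over Psmb5.

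Levels of different genes were compared per length, as FPKM over the length of a GENCODE canonical transcript. These lengths do not always match the gene models the authors counted. The Psmb5 transcript reaches down to 54850776, but its counted row ends at 54851577. The Psmb8 transcript starts at 34416690 and its row at 34417169. The FPKM of Psmb5 and Psmb8 may therefore be too low, and their ranks carry that uncertainty. In qHSC the order by mean FPKM was Psmb9 (165 ± 59.6), Psmb10 (122 ± 21.4), Psmb8 (92.3 ± 35.3) and Psmb7 (62.2 ± 6.39), with Psmb5 (16.9 ± 1.09) below (SD, n = 5). Within every qHSC library Psmb9 exceeded Psmb10 and Psmb10 exceeded Psmb8. Psmb8 exceeded Psmb7 in all but qHSC 1 (59.4 against 69.4). In hypHSC the order by mean FPKM was Psmb9 (90.2 ± 31.97), Psmb7 (70.9 ± 9.86), Psmb8 (56.8 ± 19.1), Psmb10 (50.9 ± 18.4) and Psmb5 (29.1 ± 6.32). The order of Psmb9, Psmb7 and Psmb8 varied between hypHSC libraries, while Psmb7 exceeded Psmb10 in each. Psmb10 exceeded Psmb5 in each at these lengths, but narrowly in hypHSC 5 (22.0 against 19.4), so the order of these genes is uncertain. Psmb6 stood far above the other catalytic genes in both groups, at 642 ± 105 FPKM in qHSC and 1805 ± 880 in hypHSC. The 3 inducible genes supplied 34.0 ± 4.27% of the summed FPKM of the 6 catalytic genes in qHSC and 10.9 ± 4.94% in hypHSC, a share that Psmb6 dominated. Without the β1 pair, Psmb8 and Psmb10 supplied 72.2 ± 5.91% of the sum of 4 genes in qHSC and 51.7 ± 5.79% in hypHSC. Both shares rest on the same transcript lengths, so their absolute values are uncertain.

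The macrophage markers differed among the qHSC libraries as well, with summed normalized counts of 144693 in qHSC 4 and 64072 in qHSC 1 against 6081 to 11083 in the other qHSC libraries. Psmb7 was highest in these 2 libraries (2596 in qHSC 1 and 2564 in qHSC 4, against 2133 to 2289 in the others). Psmb5 was highest in qHSC 1 (1024) and lowest in qHSC 4 (897), and Psmb6 was next to lowest in qHSC 1 (19294) and in the middle of the order in qHSC 4 (22452). Psmb8 and Psmb10 were lowest in qHSC 1 (3262 and 4417) and in the middle in qHSC 4 (4398 and 5173), and Psmb9 was next to lowest in qHSC 1 (6517) and in the middle in qHSC 4 (6620). The part of these markers in the values was not tested. The mean log2 ratio of the 3 pairs was 0.51 in qHSC 4 and 0.29 in qHSC 1, against 0.42, 1.20 and 0.70 in qHSC 2, 3 and 5.

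In the α ring, the gate through which substrates enter, 5 of 7 genes were higher and none lower (22.2% and 25.8% of all genes). The median log2 fold change was 0.72 which, like those of all groups of subunits below, is relative to -0.20 for all genes. Psma4 (α3) had 6880, 4986, 4469, 6350 and 8151 normalized counts in hypHSC 1 to 5 and 2610, 2502, 2997, 2805 and 2731 in qHSC, with no overlap and a log2 fold change of 1.14 (SE 0.18, limma adjusted p = 0.000327). Psma7 (α4) had 10775, 8676, 8087, 14295 and 16693 in hypHSC and 5358, 4366, 6147, 6032 and 5891 in qHSC, a log2 fold change of 1.03 (SE 0.22, limma adjusted p = 0.00261). Psma6, Psma5 and Psma1 were also higher, at 0.94, 0.72 and 0.70 on the log2 scale. Psma2 and Psma3 (both 0.52) did not pass, and in both hypHSC 5 was the highest library, at 12709 and 8000 normalized counts. Of the 59-base stretches of the transcript, 45.4% of those of Psma5, 22.1% of Psma3 and 20.1% of Psma4 also occur elsewhere in the genome. For Psma2 it was 2.38%, and for Psma1, Psma6 and Psma7 none, so the counts of the first genes are less certain. Psma8 (α4s) replaces Psma7 in the testis and was low, at 112, 108, 179, 102 and 56.0 in hypHSC and 176, 368, 306, 166 and 200 in qHSC. Its log2 fold change was -1.14 (SE 0.37, limma adjusted p = 0.0245), the groups overlapped at hypHSC 3, and the call was lost without qHSC 2 (-0.98) or qHSC 3 (-1.04).

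Of the structural β-ring genes Psmb1, Psmb2, Psmb3 and Psmb4, which lack a protease site, 3 of 4 were higher (22.2% of all genes). Psmb1 had 23037, 17044, 15112, 28887 and 45529 normalized counts in hypHSC and 12751, 12427, 14104, 14321 and 16197 in qHSC, so that hypHSC 3 fell within the qHSC range. The log2 fold changes were 0.78 for Psmb1, 0.50 for Psmb3 and 0.48 for Psmb2, and these 3 calls were not stable to the loss of single libraries. Psmb1 lost its call without hypHSC 1, hypHSC 4 or any 1 of qHSC 1 to 4 (0.71 to 0.80). Psmb2 lost it without hypHSC 1, 2 or 4 or qHSC 1, 2, 4 or 5 (0.39 to 0.50), and Psmb3 without hypHSC 1, 4 or 5 or qHSC 1, 2, 3 or 4 (0.43 to 0.53). Psmb4 had 0.43 and did not pass. In Psmb3, 53.5% of the 59-base stretches of its transcript occur elsewhere in the genome.

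In the base of the 19S cap, the ring of ATPases that unfolds the substrate, 3 of 6 genes were higher and none lower. Of all genes, 22.2% were higher and 25.8% lower. Psmc5 had 7132, 5248, 4445, 6628 and 7573 normalized counts in hypHSC and 3658, 3533, 4185, 3341 and 4136 in qHSC, without overlap, and a log2 fold change of 0.70 (SE 0.18, limma adjusted p = 0.00692). Psmc4 (0.64) and Psmc6 (0.49) were higher too. Psmc2 (0.41), Psmc3 (0.28) and Psmc1 (0.14) did not pass, so members of one ring differed in whether they passed. None of the 6 reached a 2-fold change.

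Among the 11 non-ATPase genes of the cap, 5 were higher and none lower (22.2% and 25.8% of all genes). Psmd14 encodes the deubiquitinase that removes the ubiquitin chain as the substrate enters. It had 5758, 4386, 4686, 8839 and 11799 normalized counts in hypHSC 1 to 5 and 2330, 2191, 2252, 2127 and 2053 in qHSC 1 to 5, with a log2 fold change of 1.59 (SE 0.26, limma adjusted p = 0.000453). Every hypHSC library was above every qHSC library, with hypHSC 4 and 5 highest, as for Psmb6. Psmd1, the large scaffold of the base, had 2978, 2845, 2720, 3778 and 3990 in hypHSC and 1321, 1479, 1313, 1235 and 1439 in qHSC, again without overlap (log2 fold change 1.25, SE 0.16, limma adjusted p = 7.06e-05). Psmd8, a lid subunit, had 4765, 3997, 4768, 4487 and 3488 in hypHSC and 2086, 2162, 1801, 2208 and 2464 in qHSC, a log2 fold change of 1.001 (SE 0.15, limma adjusted p = 0.000236). The spread of Psmd8 was narrow in both groups, with hypHSC 5 lowest.

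Psmd12 (0.63) and the ubiquitin receptor gene Psmd4 (0.60) were also higher, the former lost without hypHSC 4 or any 1 of the qHSC libraries (0.54 to 0.65). Psmd11 (0.48), Psmd2 (0.37), Psmd6 (0.27), Psmd3 (0.17), Psmd13 (0.13) and Psmd7 (0.06) did not pass. In Psmd2, Psmd3 and Psmd13 hypHSC 5 was below all other libraries. Without hypHSC 5 these genes passed, at 0.63, 0.68 and 0.40. Of the exon bases of Psmd13, 54.2% overlap exons of Cox8b and Sirt3. Psmd2 encodes the partner scaffold of Psmd1, and had 15768 to 17058 normalized counts in hypHSC 1 to 4 and 6681 in hypHSC 5, against 9375 to 11617 in qHSC.

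The library hypHSC 5 spread the proteasome genes the most. The deviation of its log2 values from the hypHSC mean had an SD of 0.73 over the 50 genes, against 0.28 to 0.41 in the other hypHSC libraries and 0.15 to 0.25 in qHSC. Over the 50 genes, this deviation in hypHSC 5 had a Pearson correlation of -0.43 with the GC content of the transcript, and of -0.30 over the 14234 tested genes with a GC content. In hypHSC 1 and 2 the correlation over the 50 genes was 0.31 and 0.40. These correlations are across genes of the same libraries, and genes are not independent replicates. The part of GC content in the group differences was addressed by a correction within each library, chosen after the data had been seen, with which 27 proteasome genes were higher and 2 lower. With it the 3 ratios of inducible to constitutive genes were -2.25, -1.38 and -1.41 for the β1, β2 and β5 pairs.

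**Figure D4:**
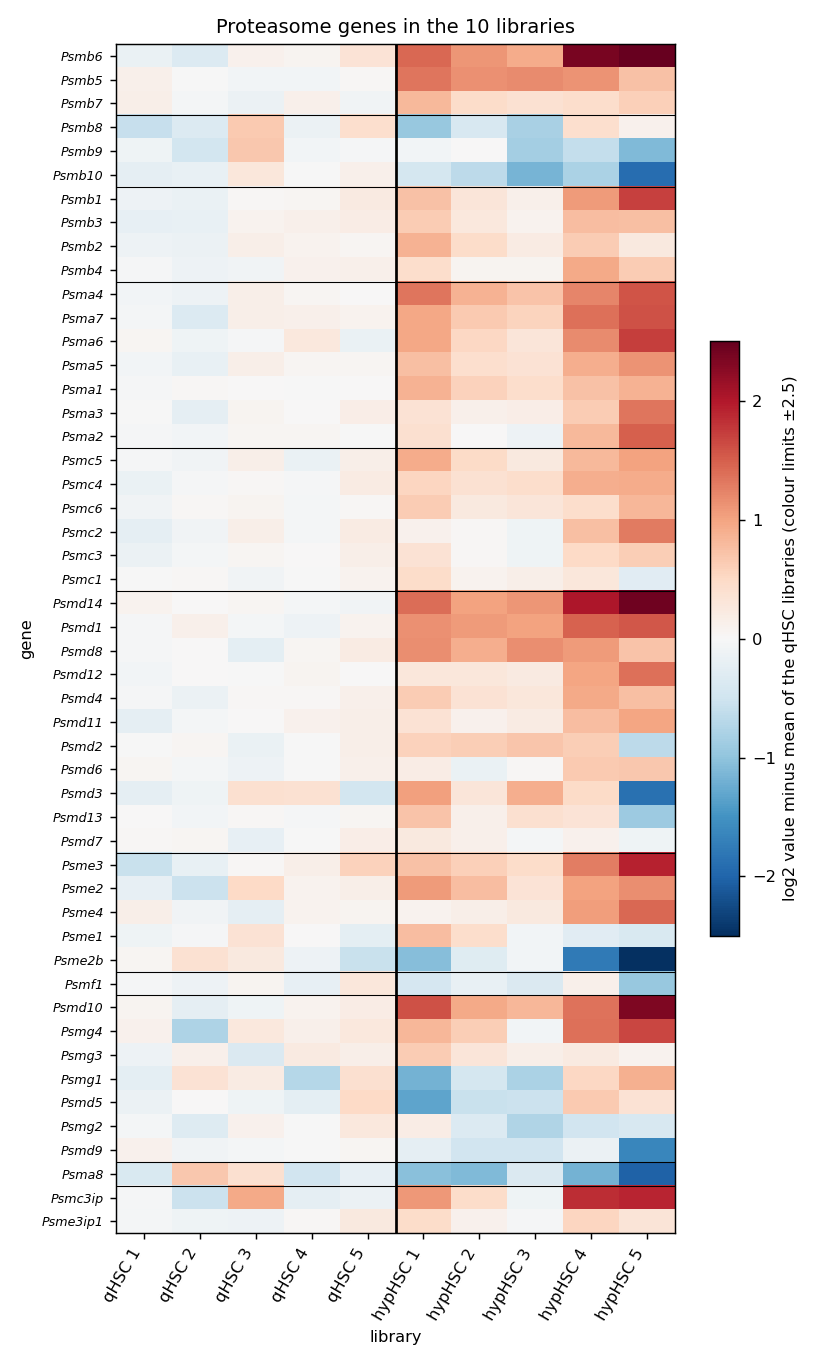
Log2 normalized count of each of the 50 proteasome genes tested (rows, grouped by role) in each of the 10 libraries (columns), minus the mean of the 5 qHSC libraries. Red is higher and blue lower, with colours limited at 2.5 on the log2 scale. The constitutive catalytic genes at the top are red in every hypHSC column, whereas some cap and α-ring genes (Psma2, Psmc2, Psmd7) turn blue in single hypHSC libraries, and hypHSC 5 holds both the deepest red and the deepest blue values. The colours follow the deposited scaling. With scaling on 3 reference genes the median group difference of all genes moved by -0.94.

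The activators open the core without the 19S cap. Psme1 and Psme2 together form the interferon-inducible PA28αβ, which is linked to class I peptide supply. Psme2 had 4998, 4078, 3026, 4815 and 5401 normalized counts in hypHSC and 2072, 1648, 3405, 2568 and 2673 in qHSC. Only qHSC 3 reached into the hypHSC range, and the log2 fold change was 0.87 (SE 0.23, limma adjusted p = 0.00845). Psme1 had 6814, 5459, 3829, 3275 and 3075 in hypHSC and 3706, 3940, 5168, 4030 and 3370 in qHSC, overlapping, with a log2 fold change of 0.10 (SE 0.23, limma adjusted p = 0.756). Both counts are uncertain: 56.0% of the 59-base stretches of Psme2 occur elsewhere in the genome, and 51.9% of the Psme1 exon bases overlap exons of Emc9 in libraries made without strand.

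Psme3, the nuclear PA28γ, was higher at a log2 fold change of 0.997 (SE 0.35, limma adjusted p = 0.0369), from 190, 174, 156, 279 and 433 normalized counts in hypHSC and 76.9, 99.7, 117, 127 and 170 in qHSC. Its groups overlapped at hypHSC 3 and qHSC 5, and the call was lost without hypHSC 4, hypHSC 5 or any 1 of qHSC 1 to 4 (0.77 to 1.03). Psme4 (PA200) had 0.59 and did not pass, nor did Psme2b (-1.21, limma adjusted p = 0.0551), whose table row also carries 9930111J21Rik1. The inhibitor gene Psmf1 (PI31) had a log2 fold change of -0.35 and did not pass.

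Of the 7 chaperones that build the complex, 1 was higher (14.3%, against 22.2% of all genes) and none lower (25.8% of all genes). Their median was -0.20, equal to that of all genes. The higher one was Psmd10 (gankyrin), which holds an ATPase pair during assembly of the base. It had 8706, 5564, 5137, 7352 and 14580 normalized counts in hypHSC 1 to 5 and 2997, 2476, 2658, 3068 and 3253 in qHSC 1 to 5, without overlap. Its log2 fold change was 1.42 (SE 0.26, limma adjusted p = 0.00102). The other base chaperones, Psmd9 (-0.59) and Psmd5 (-0.28), did not pass, although Psmd9 was below qHSC in every hypHSC library and passed without hypHSC 5, at -0.33. Of the core chaperones, Psmg4 had 0.89 (limma adjusted p = 0.0506), and Psmg3 (0.28), Psmg1 (-0.20) and Psmg2 (-0.36) did not pass. The name matches Psmc3ip (1.04, SE 0.46, limma adjusted p = 0.086) and Psme3ip1 (0.28) did not pass either.

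Other genes of the pathway were taken from a list of 53, of which 51 were matched and tested, with 17 higher, 13 lower and 21 that did not pass (22.2% and 25.8% of all genes were higher and lower). Of the 20 genes of receptors, assembly factors and regulators, 11 were higher and none lower. Pomp, which drives maturation of the core, had 37140, 25871, 21230, 46908 and 89985 normalized counts in hypHSC and 11879, 12191, 15029, 15220 and 15294 in qHSC, a log2 fold change of 1.48 (SE 0.34, limma adjusted p = 0.0041). As with Psmb6 and Psmd14, hypHSC 4 and 5 were the highest libraries. The cap subunit gene Sem1 (1.27), the cap deubiquitinase gene Uchl5 (1.16), the shuttle protease gene Ddi2 (1.70) and the zinc finger genes Zfand5 (2.65) and Zfand2a (2.04) were differentially expressed and higher. Of the transcription factors, Nfe2l2 (NRF2) was higher at 0.43 (SE 0.15, limma adjusted p = 0.0337), while Nfe2l1 (NRF1), which drives proteasome genes when the proteasome is impaired, had -0.35 (SE 0.33, limma adjusted p = 0.4). The receptor gene Adrm1 had -0.09 and did not pass.

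Among the 7 genes of ubiquitin and its activation, 3 were higher and none lower (22.2% and 25.8% of all genes). The fusion gene Rps27a was higher (1.39), and the polyubiquitin gene Ubb (0.09) did not pass. Ubd, which encodes the ubiquitin-like FAT10 that is induced by interferon-γ and TNF, had 740, 119, 126, 190 and 27.2 normalized counts in hypHSC and 9.96, 0, 28.3, 7.70 and 0 in qHSC. Its log2 fold change of 4.88 (SE 1.11, limma adjusted p = 0.00383) rested on low counts, and hypHSC 5 was below qHSC 3.

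Of the 12 genes of class I peptide supply, 6 were lower, 1, Lnpep (0.59), was higher and 5 did not pass. Of all genes, 25.8% were lower and 22.2% higher. Tap1, a subunit of the peptide transporter and the neighbour of Psmb9, had 966, 1113, 663, 358 and 392 normalized counts in hypHSC and 1360, 1059, 2478, 1041 and 1192 in qHSC. Only hypHSC 2 reached into the qHSC range, and the log2 fold change was -1.09 (SE 0.37, limma adjusted p = 0.0283). Tap2 (-1.99), the peptide-trimming enzyme gene Erap1 (-1.01) and B2m (-1.13), the light chain of class I molecules, were lower by at least 2-fold as well. Nlrc5, the transactivator of class I genes, had -0.76 (SE 0.44, limma adjusted p = 0.18).

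**Figure D5:**
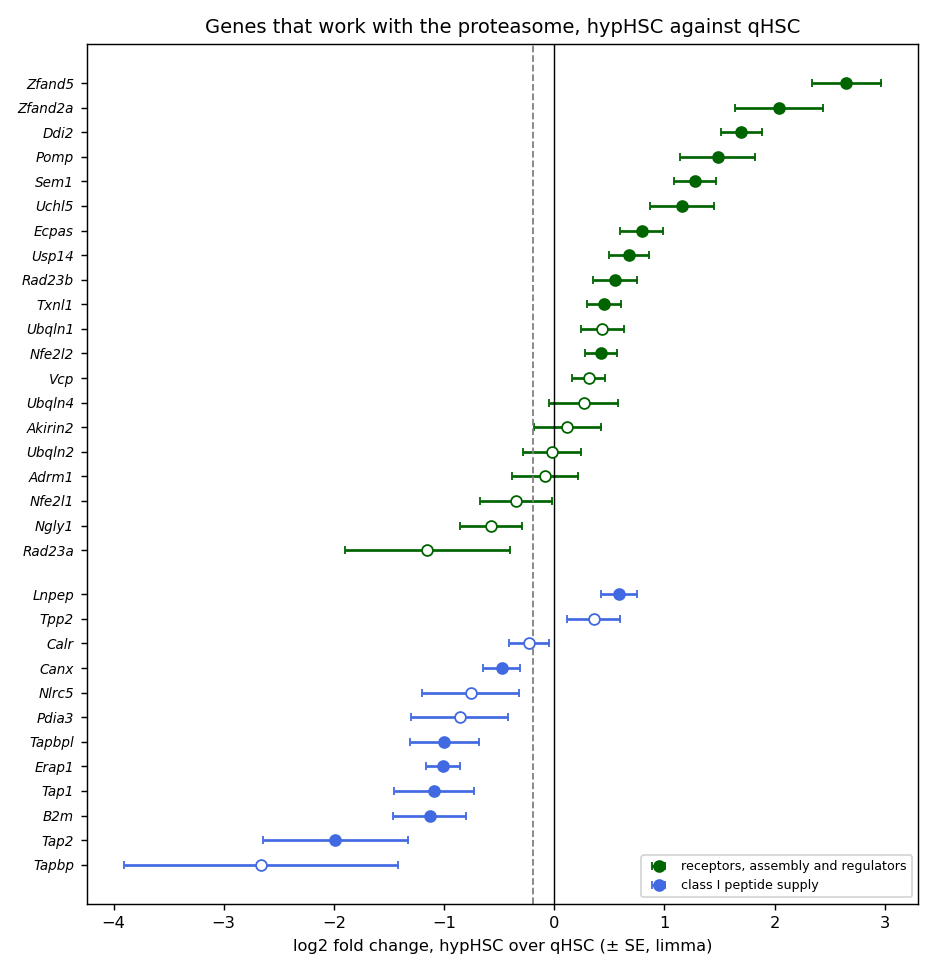
Log2 fold change, hypHSC over qHSC, of the 20 receptors, assembly factors and regulators and the 12 genes of class I peptide supply, with bars of 1 standard error from limma (5 libraries per group), coloured by list. Filled points passed an adjusted p of 0.05 and the dashed line is the median of all genes tested (-0.20). The list of receptors, assembly factors and regulators has 11 higher and no lower genes, and that of class I peptide supply 1 higher and 6 lower. Of all genes tested, 22.2% were higher and 25.8% lower. With scaling on 3 reference genes, 4 of all 51 pathway genes were higher and 29 lower.

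Of 12 interferon and NF-κB regulators, 7 were lower and 2 higher, all by at least 2-fold (21.7% and 17.8% of all genes). Irf1, a direct activator of the inducible subunit genes, had 747, 1182, 673, 472 and 206 in hypHSC and 2293, 2105, 2337, 2051 and 2120 in qHSC, a log2 fold change of -1.94 (SE 0.38, limma adjusted p = 0.00145). The groups did not overlap. The highest qHSC library was qHSC 3 (2337, against 2293 in qHSC 1), and the highest hypHSC library was hypHSC 2. A relation of Irf1 to the inducible subunit genes across libraries was not tested. Stat2 (-1.73), Irf9 (-1.08), Ifnar2 (-1.87), Stat3 (-1.41) and Rela (-1.59) were also lower. The exceptions were Irf8 (1.63), a regulator typical of myeloid cells, and the interferon-γ receptor gene Ifngr2 (1.65). The macrophage markers moved in the same direction as Irf8, and their part in its difference was not tested.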

How the data were processed

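Poly(A) RNA of 10 preparations of sorted cells, 5 hypHSC and 5 qHSC, was sequenced from unstranded low-input libraries as paired reads of 59 bases. The authors aligned the reads to mm39 with STAR 2.7.5a, counted them per gene with featureCounts (Subread 1.5.0) on the FAST DB annotation and divided the counts by DESeq2 size factors. How reads with several matches were counted is not given in the sources used here. The deposited values are this scaled signal, rounded to 2 decimals. Whole reads were recovered for 100% of the values, so that depth was known, and the number of reads limits the precision of low genes.

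Rows that carried a symbol and reached 10 normalized counts in 5 or more libraries were tested with limma 3.58.1 (trend) in R 4.3.3, on log2(normalized count + 1), with Benjamini-Hochberg adjustment over 14630 genes, a scale that understates changes of low genes. A gene was called at an adjusted p of at most 0.05, and called differentially expressed if the absolute log2 fold change also reached 1, after the thresholds of the study. Ratios of gene pairs were compared with exact two-sided permutation tests over libraries. The alternatives were edgeR 4.0.16 and DESeq2 1.42.0 on the recovered counts, other pseudocounts, filters and scalings, a replicate block, leaving out libraries and a GC correction added after the data were seen. The fits were tested on simulated data. All 6 catalytic genes, each differentially expressed member, and chosen pathway genes were named with values, and other members by their log2 fold change, range or count. Members, lists and this rule were chosen with earlier results of these data known. Positions, lengths and overlaps came from GRCm39 with GENCODE vM39, and promoters from RefSeq. Some genes of the pathway lists are counted but not reported here by name.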

Additional observations from a re-analysis of the deposited data

Results flagged for a closer look

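For each of the 50 genes tested and each of the 3 ratios, in each group, the gap between an extreme library and its nearest neighbour was compared with the whole range of the group by Dixon's test at the 95% level. Of the 106 combinations with a group, 4 stood out, all of them single genes, while chance marks about 1 in 20. Psmd2 in hypHSC was set apart by hypHSC 5, at 6681 normalized counts against 15768 to 17058 in the other hypHSC libraries. Psmd3 in hypHSC was set apart by the same library, at 132 against 595 to 981, and so was Psmd9, at 634 against 1404 to 1768. Psmg4 in qHSC was set apart by qHSC 2, at 216 against 400.05 to 445.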

How the results depend on the processing

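Scaling mattered most. With equal library totals 10 proteasome genes were higher and 7 lower, of which 3 and 3 were differentially expressed, and with Hprt, Pgk1 and Actb as reference 0 were higher and 16 lower, with 0 and 9. Of the pathway genes, 11 were higher with equal totals, and with the reference genes 4 were higher and 29 lower, of which 3 and 26 were differentially expressed. With edgeR 6 pathway genes were differentially expressed and lower. With the 12-week hypHSC libraries 4 proteasome genes were lower, 2 of them differentially expressed, and the Psmb8 over Psmb5 difference was -1.12. DESeq2 gave 28 and edgeR 24 proteasome genes that were higher. Leaving out single libraries, the differentially expressed and lower proteasome genes numbered 0 to 3 (0 without hypHSC 5 or qHSC 3), the lower ones 1 to 3, and the differentially expressed and lower pathway genes 6 to 12 (6 without hypHSC 4). The 3 ratios kept their sign and their side of 0.05 without any single library, between -1.64 and -1.22 (β5), -2.55 and -1.84 (β1) and -1.63 and -1.28 (β2).

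The replicate numbers were tested as a possible pairing. Same-numbered libraries deviated together with correlations of 0.0082 to 0.13, and only number 5 correlated best with its own number in both groups. Correlations this weak cannot exclude a pairing, and nothing used here states one. With a replicate block 21 proteasome genes were higher and 3 lower, 2 of them differentially expressed. The block leaves the ratios at -1.44, -2.26 and -1.53 for the β5, β1 and β2 pairs, each with an exact permutation p of 0.0625, the smallest that 5 pairs allow.

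Signs of single genes turned mainly with the reference genes. With them the log2 fold changes were -0.24 (Psma1), -0.42 (Psma2), -0.42 (Psma3), -0.22 (Psma5), -0.00082 (Psma6), -0.16 (Psmb1), -0.46 (Psmb2), -0.44 (Psmb3), -0.51 (Psmb4), -0.40 (Psmb7), -0.80 (Psmc1), -0.53 (Psmc2), -0.66 (Psmc3), -0.30 (Psmc4), -0.24 (Psmc5), -0.45 (Psmc6), -0.46 (Psmd11), -0.31 (Psmd12), -0.80 (Psmd13), -0.57 (Psmd2), -0.77 (Psmd3), -0.34 (Psmd4), -0.66 (Psmd6), -0.87 (Psmd7), -0.84 (Psme1), -0.073 (Psme2), -0.66 (Psme3ip1), -0.35 (Psme4), -0.66 (Psmg3) and -0.049 (Psmg4). With equal totals they were -0.22 (Psmc1), -0.079 (Psmc3), -0.22 (Psmd13), -0.18 (Psmd3), -0.081 (Psmd6), -0.29 (Psmd7), -0.26 (Psme1), -0.075 (Psme3ip1) and -0.077 (Psmg3). With the 12-week libraries they were -0.059 (Psmd13), -0.16 (Psmd3), 0.16 (Psmd5), -0.013 (Psmd7), -0.24 (Psme1) and 0.21 (Psmg1). Psmg1 was 0.047 with DESeq2, 0.043 with edgeR and 0.038 with the GC correction. Leaving out single libraries gave ranges of -0.012 to 0.40 (Psmd13), -0.042 to 0.68 (Psmd3), -0.071 to 0.22 (Psme1) and -0.47 to 0.044 (Psmg1). The cause of these turns was not tested beyond the shift of the median of all genes, of -0.94 with the reference genes and -0.35 with equal totals.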
